A study of Mus musculus with 9 samples.

Results

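The expression of 34 genes of glucose use and of its control was followed in 3 subsets of splenic B cells from naive mice. The genes code for transporters of glucose and lactate, the enzymes of glycolysis and of the pentose phosphate pathway, regulators of phosphofructokinase and of pyruvate dehydrogenase, and the transcription factors Myc and Hif1a. They were chosen by symbol, and they and the further lists used below were chosen with earlier results of these data known. Each of the 34 symbols was on 1 row of an expression table of 24459 rows and 23954 distinct symbols. Of the 34 genes, 31 had a mean of at least 0.5 FPKM (fragments per kilobase of transcript, relative to all fragments mapped in the library) over the 9 libraries and were tested, among 11597 rows tested in all. Hk3, Ldhb and Slc16a3 were under this minimum and are described by their values.

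The study compared BDL, which are B cells of the follicular gate with low or no surface IgD, with follicular (FO) B cells with high IgD and with marginal zone (MZ) B cells. All cells came from spleens of naive mice aged 8 to 10 weeks, and the B cells were enriched by magnetic negative selection before they were sorted by FACS. FO B cells and BDL were sorted as B220+IgMintCD21intCD23+CD93- cells and MZ B cells as B220+IgMhiCD21hiCD23-CD93- cells, each from a pool of the spleens of 5 mice. There were 3 sorts and so 3 libraries per subset, named here replicates 1 to 3, and the strain is C57/BL6 in the sample labels and B10.PL in the paper. In such bulk RNA, a larger share of cells that express a gene and more of its RNA in each cell cannot be told apart.

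Glycolysis splits glucose into pyruvate, which is either reduced to lactate and exported or taken into mitochondria by pyruvate dehydrogenase. The pentose phosphate pathway branches off at glucose 6-phosphate and yields NADPH and ribose 5-phosphate, the sugar of nucleotides. Resting B cells are small cells with a low use of glucose, and activation through the antigen receptor raises glucose uptake and glycolytic enzymes together. Myc, a helix-loop-helix protein that binds E boxes with its partner Max, and HIF-1α, which is stable in low oxygen, are known activators of many of these enzyme genes.

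The sorted subsets were checked against marker genes. The B cell genes Ms4a1, which codes for CD20, and Cd79a, which codes for a chain of the antigen receptor complex, were at 401.6 to 852.4 and 930.1 to 1762 FPKM over all libraries. The sum of 6 MZ markers was 933.4 to 1089 in MZ B cells, 254.1 to 268.9 in FO B cells and 212.3 to 226.1 in BDL, and that of 4 FO markers was 1198 to 1273 in FO B cells, 1013 to 1209 in BDL and 255.6 to 291.8 in MZ B cells. Single MZ markers differed from their sum: at an adjusted p under 0.05, 2 were higher and 0 lower in BDL than in FO B cells, beside 6.04% and 1.68% of all rows. Of these, Cd9 was 3.57-fold higher in BDL than in FO B cells (adjusted p = 1.36e-04) and 9.94-fold lower than in MZ B cells (adjusted p = 1.78e-06). The sums of T cell, NK cell, myeloid, erythroid and platelet markers were each at most 23.57 FPKM. The T cell sum was 18.92 to 23.57 in BDL, 9.64 to 11.08 in FO B cells and 7.482 to 12.98 in MZ B cells, mostly from Lck, with each CD3 gene under 1 FPKM in every library. The 8 erythroid genes found in the table summed to 7.158 to 8.238 FPKM in BDL, 2.14 to 4.427 in FO B cells and 3.211 to 5.745 in MZ B cells, with Hbb-b1 at 5.13 to 6.42 FPKM in BDL, 1.195 to 2.023 in FO B cells and 1.474 to 2.971 in MZ B cells. Hba-a1, the other main globin gene of the list, was not higher in BDL, at 1.08 to 1.567 FPKM, beside 0.4147 to 1.852 in FO B cells and 1.427 to 2.341 in MZ B cells. Of the myeloid markers, Emr1, which codes for F4/80, was at 3.131 to 3.881 FPKM in BDL and 0.6396 to 0.8865 in FO B cells (3.98-fold, adjusted p = 8.22e-04), and at 0.5357 to 0.7651 in MZ B cells (4.57-fold, adjusted p = 6.91e-05). The 6 myeloid markers tested had a median log2 fold change of 0.45 between BDL and FO B cells and of 0.01 between BDL and MZ B cells. At an adjusted p under 0.05, 2 were higher and 0 lower in BDL than in FO B cells. Against MZ B cells 1 was higher and 0 lower in BDL, beside 16.5% and 11.6% of all rows. Of the plasma cell markers, Sdc1, which codes for CD138, was at 6.859 to 9.585 FPKM in BDL and 1.219 to 1.67 in FO B cells (5.35-fold, adjusted p = 0.00147), and at 0.1142 to 0.2892 in MZ B cells (31.7-fold after adding 0.1, adjusted p = 6.54e-06), whereas the sum of that list came mostly from Irf4, at 100.8 to 270 FPKM over all libraries. Prdm1 of the same list went the other way against MZ B cells, 4.36-fold lower in BDL (means of 0.93 and 4.39 FPKM, adjusted p = 0.00118). The median log2 fold change of this list was 0.65 between BDL and FO B cells and -0.44 between BDL and MZ B cells. The part of these marker genes in the results was not tested. The depth of the libraries, estimated from the steps between low values, was 0.91 to 1.21 times that of FO replicate 1.

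BDL replicate 3 and MZ replicate 3 stood apart for the genes of glucose use. In BDL replicate 3 the median of the 31 genes was 0.29 (log2) above the mean of the other BDL libraries, with 23 of 31 genes higher, whereas the median of all rows was 0.02 above it. In MZ replicate 3 it was 0.33 above the other MZ libraries, with 27 of 31 genes higher and a median of all rows of 0.12. The other 7 libraries had medians between -0.18 and 0.05. Counts are therefore also given without both of these libraries.

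**Figure D1:**
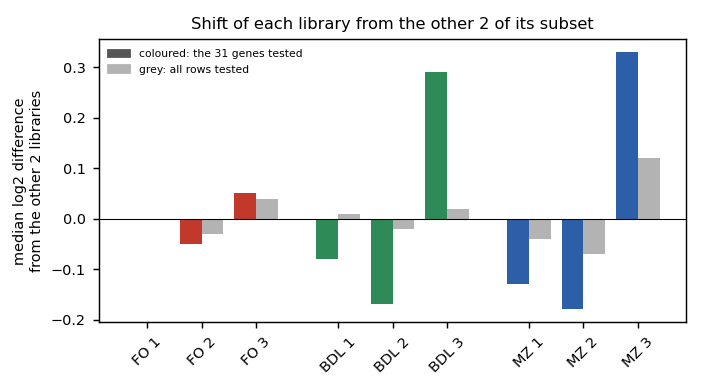
Median log2 difference of each library from the mean of the other libraries of its subset, for the 31 genes tested (coloured bars) and for all 11597 rows tested (grey bars). BDL replicate 3 (0.29) and MZ replicate 3 (0.33) rise above the other libraries in the coloured bars, and FO replicate 1 is at 0.00 in both.

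Compared with FO B cells, BDL had more transcript of 8 of the 31 genes, by less than 2-fold each. At an adjusted p under 0.05 with no fold minimum, 8 of 31 genes (25.8%) were higher in BDL, namely Hk2, Pfkp, Tpi1, Pgam1, Ldha, Slc16a1, Pfkfb3 and Pgd, where 6.04% of all rows passed in this direction. Pfkfb4 alone was lower (3.23% of the genes, 1.68% of all rows). None was called at the additional minimum of 2-fold used by the study, either higher (1.64% of all rows) or lower (0.267% of all rows). By the same limma fit, 12 genes were higher and 3 lower at an unadjusted p under 0.05, and of those that did not pass after adjustment Tkt came nearest, at 0.0558. The share of all rows at this unadjusted level was not counted, so these counts cannot be set against it. The median log2 fold change of the 31 genes was 0.20, beside 0.05 over all rows, and it was 0.09, 0.23 and 0.41 within replicates 1, 2 and 3. The FPKM ranges of BDL and FO B cells were apart for 14 genes higher and 5 lower in BDL, beside 24.4% and 10.3% of all rows.

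Hk2 alone of these 8 genes passed whichever library was left out. Without FO replicate 1, 2 or 3 or BDL replicate 1 or 2 the count of genes higher in BDL was 1, without BDL replicate 3 it was 3, and without MZ replicate 1 or 2 it was 2 or 4. The highest adjusted p of the other 7 genes over 19 alternatives was between 0.0881 and 0.155. With the replicate number as a block, 12 genes passed higher and 2 lower, and without BDL and MZ replicate 3 the counts were also 12 and 2. The share of all rows that passed in these fits was not counted, so whether the rise is particular to these genes was not tested. The genes that passed with the block in limma but not without it were Gapdh (adjusted p = 0.0212), Pgk1 (0.0227), Pdha1 (0.0259) and Tkt (0.0116), higher in BDL, and Slc2a1 (0.0219), lower.

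Compared with MZ B cells, BDL had less Myc (4.03-fold) and less Pfkm, which lay just over the minimum of 2-fold (2.04-fold). No gene was called higher at that minimum. The 2 genes called lower make 6.45% of the 31, beside 4.34% of all rows, and 3.47% of all rows were called higher. With no fold minimum, 6 genes were higher in BDL (Aldoc, G6pdx, Pfkl, Pfkp, Pgd and Slc16a1, 19.4% of the genes and 16.5% of all rows) and 3 were lower (Myc, Pfkm and Slc2a3, 9.68% of the genes and 11.6% of all rows). These shares were close to those of all rows, and upper quartile scaling moved the counts to 4 higher and 4 lower and quantile normalization to 5 higher and 4 lower. At an unadjusted p under 0.05, 7 genes were higher and 4 lower, again with no share of all rows counted. The median log2 fold change was 0.10, beside 0.06 over all rows, and 0.13, 0.11 and 0.09 within the 3 replicates. It was 0.16, 0.18 and 0.03 without BDL replicate 1, 2 or 3 and 0.05, 0.04 and 0.23 without MZ replicate 1, 2 or 3. Without FO replicate 1, 2 or 3 or BDL replicate 2, 4 genes passed higher, without BDL replicate 1 or 3 it was 3, without MZ replicate 1 or 2 it was 2, and without BDL and MZ replicate 3 it was 8. No share of all rows was counted for these fits. Without BDL replicate 3 or MZ replicate 2, 1 gene, Myc, was called lower by at least 2-fold, and Pfkm was not. With the replicate block, Tkt (adjusted p = 0.0123) and Pfkfb3 (0.023), higher in BDL, and Pfkfb2 (0.0168), lower, passed as well.

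Compared with MZ B cells, FO B cells had less Hk2 and Myc by more than 2-fold, and no gene was called higher. These 2 genes make 6.45% of the 31, beside 5.54% of all rows, and 3.39% of all rows were called higher. With no fold minimum, 7 genes were lower in FO B cells (Hk2, Ldha, Myc, Pfkm, Pgam1, Pgk1 and Tpi1, 22.6% of the genes and 14.3% of all rows) and 3 were higher (Pfkfb4, Pfkl and Pfkp, 9.68% of the genes and 12.8% of all rows). The median log2 fold change was -0.15, beside 0.01 over all rows, and -0.09, -0.05 and -0.29 within the 3 replicates. It was -0.10 without FO replicate 2 and -0.05 without MZ replicate 3, and also -0.05 without BDL and MZ replicate 3. Hk2, Myc, Pfkm and Tpi1 were the 4 genes that passed lower without any 1 of the FO libraries, and Pfkl alone passed higher without FO replicate 1, FO replicate 3 or MZ replicate 2. With the replicate block, 10 genes passed lower and 5 higher, and without BDL and MZ replicate 3 the counts were 9 and 6, with no share of all rows counted for either. At an unadjusted p under 0.05, 9 genes were lower and 4 higher, again with no share of all rows counted. The genes that passed with the block but not without it were Gpi1 (adjusted p = 0.0198), Gapdh (0.0402) and Pfkfb3 (0.0368), lower in FO B cells, and Aldoc (0.0218) and G6pdx (0.0344), higher. The 3 comparisons share libraries and are therefore not independent of each other.

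**Figure D2:**
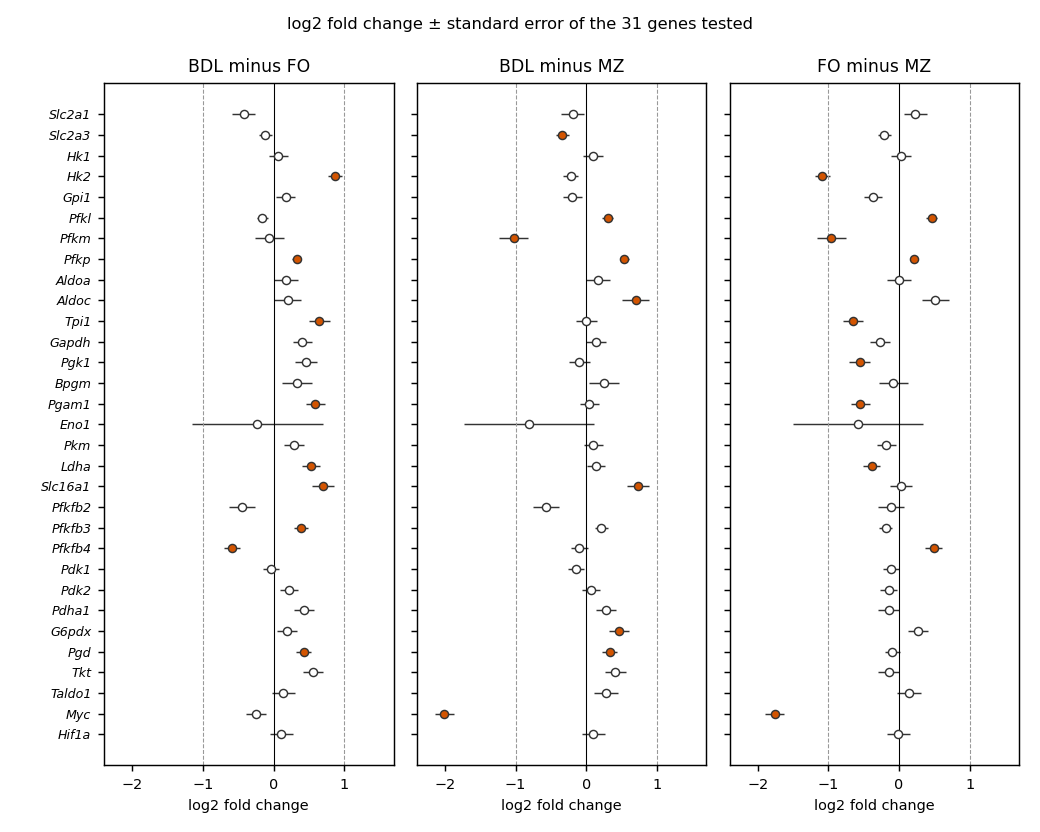
log2 fold change (points) and standard error (lines) from limma for the 31 genes in the 3 comparisons, with filled points at an adjusted p under 0.05 and dashed lines at 2-fold. In the comparison of BDL with FO B cells 8 filled points lie right of 0 and 1 (Pfkfb4) left of it, and Myc lies at -2.01 and -1.76 in the comparisons with MZ B cells.

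Myc (chr15:61816946-61821929 of NCBIM37, the assembly also named mm9, plus strand) was the gene with the largest difference of the 31 in either comparison with MZ B cells. Its FPKM was 121.1, 140.5 and 116.4 in replicates 1 to 3 of FO B cells, 108.6, 105.6 and 102.3 in BDL, and 379.8, 390.3 and 518.5 in MZ B cells. All 3 MZ libraries were above all others, and the BDL libraries were below the FO libraries by a small margin. BDL were 4.03-fold lower than MZ B cells (log2 fold change -2.01, standard error 0.137, adjusted p = 2.67e-05) and FO B cells 3.38-fold lower (-1.76, standard error 0.137, adjusted p = 4.15e-05). Between BDL and FO B cells the difference of -0.25 did not pass (adjusted p = 0.3), nor did it with the replicate block (0.245) or in any of the alternatives. Hif1a, which codes for the oxygen-regulated subunit of HIF-1, was at 17.7, 20.2 and 19.7 FPKM in FO B cells, 17.9, 19.4 and 25.3 in BDL and 16.9, 17.7 and 23.8 in MZ B cells. Its ranges overlapped in all comparisons, with differences of 0.11, 0.10 and -0.01 (log2) and adjusted p of 0.69 or more.

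Stretches upstream of 4 genes are shown because these genes differed between subsets and because their windows hold, or lack, certain letters. These are the letters bound by Myc with Max (CACGTG) and a form of the core that HIF binds (ACGTG). Other forms of this core were not counted. Each stretch is the 250 bases before a RefSeq transcript start on GRCm38.p6, found once by exact match in NCBIM37 and written 5′ to 3′ on the strand of the gene. Capitals mark CACGTG, or ACGTG and its reverse complement CACGT where they stand outside CACGTG. The window of Hk2 is chr6:82724449-82724698 (minus strand), that of Pfkm is chr15:97922770-97923019 (plus), that of Ldha is chr7:54100924-54101173 (plus) and that of Slc16a1 is chr3:104442337-104442586 (plus).
Hk2: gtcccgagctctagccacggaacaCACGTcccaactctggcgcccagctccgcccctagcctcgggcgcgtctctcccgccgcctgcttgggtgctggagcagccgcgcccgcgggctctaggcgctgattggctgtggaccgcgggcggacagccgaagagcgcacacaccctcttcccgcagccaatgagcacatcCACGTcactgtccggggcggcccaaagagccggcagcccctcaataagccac
Pfkm: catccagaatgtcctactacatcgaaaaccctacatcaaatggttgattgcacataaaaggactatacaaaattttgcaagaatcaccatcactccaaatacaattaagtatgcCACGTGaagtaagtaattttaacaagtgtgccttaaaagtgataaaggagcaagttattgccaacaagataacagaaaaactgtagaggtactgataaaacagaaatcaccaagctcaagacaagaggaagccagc
Ldha: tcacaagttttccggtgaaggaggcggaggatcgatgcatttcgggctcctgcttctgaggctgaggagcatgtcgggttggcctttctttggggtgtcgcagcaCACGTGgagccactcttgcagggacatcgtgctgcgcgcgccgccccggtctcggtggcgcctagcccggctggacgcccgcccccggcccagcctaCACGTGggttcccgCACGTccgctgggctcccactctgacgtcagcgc
Slc16a1: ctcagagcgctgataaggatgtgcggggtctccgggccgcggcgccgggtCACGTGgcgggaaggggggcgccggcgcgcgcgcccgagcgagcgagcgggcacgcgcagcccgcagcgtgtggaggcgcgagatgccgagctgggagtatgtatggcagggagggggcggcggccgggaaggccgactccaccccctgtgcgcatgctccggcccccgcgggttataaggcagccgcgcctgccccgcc
The Ldha window shown holds 2 matches of CACGTG, those of Pfkm and Slc16a1 hold 1 each, and that of Hk2 holds none but 2 of the shorter core. The other window of Ldha and the other 3 windows of Pfkm hold no CACGTG. Of 49 windows of 32 of the genes, 7 (14.3%) hold CACGTG, compared with 6.02% of all 32851 windows, and 19 (38.8%) hold ACGTG on either strand, which every CACGTG contains, compared with 16.6%. The 7 windows belong to Pfkm, Ldha, Slc16a1, Pfkfb2, Pfkfb3, Pdk2 and Hif1a. Myc and Slc2a3 had no window in the table used.

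Of the 2 glucose transporters among the 34 genes, Slc2a3 (GLUT3) passed in 1 comparison and Slc2a1 (GLUT1) in none. Slc2a1 was at 21.7, 28.2 and 24.1 FPKM in FO B cells, 17.8, 21.0 and 16.4 in BDL and 17.2, 25.3 and 20.9 in MZ B cells. All BDL libraries were below all FO libraries, but the difference of -0.42 (log2) did not pass (adjusted p = 0.164), and the BDL and MZ libraries overlapped (adjusted p = 0.438). Slc2a3 was at 14.8, 14.1 and 14.5 FPKM in FO B cells, 12.8, 12.9 and 14.2 in BDL and 16.3, 15.3 and 18.8 in MZ B cells. It was 1.26-fold lower in BDL than in MZ B cells (log2 fold change -0.34, standard error 0.0914, adjusted p = 0.0269), a call that was lost without FO replicate 3, BDL replicate 1 or 2, or MZ replicate 1, with an adjusted p of up to 0.0838. Its difference between FO and MZ B cells did not pass (adjusted p = 0.13).

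Hexokinases phosphorylate glucose on entry, and Hk2, the form that activated cells induce, differed between BDL and FO B cells under all 19 alternatives. Hk2 (chr6:82675019-82724448, minus strand) was at 1.10, 1.27 and 1.12 FPKM in FO B cells, 2.34, 2.24 and 2.04 in BDL and 2.42, 2.75 and 2.59 in MZ B cells. All FO libraries were below all others, and BDL were just below MZ B cells without overlap. It was 1.83-fold higher in BDL than in FO B cells (log2 fold change 0.87, standard error 0.106, adjusted p = 0.00316) and 2.13-fold lower in FO than in MZ B cells (-1.09, standard error 0.106, adjusted p = 1.36e-04), while BDL and MZ B cells differed by -0.22 (adjusted p = 0.16). Hk1, the housekeeping form, was the most abundant hexokinase at 13.3, 13.6 and 13.1 FPKM in FO B cells, 12.9, 12.6 and 17.0 in BDL and 11.8, 12.3 and 15.4 in MZ B cells, with overlap in every comparison. Hk2 made up 7.53 to 8.46% of the summed FPKM of the 3 hexokinases in FO B cells, 10.6 to 15.2% in BDL and 14.2 to 17.6% in MZ B cells, with the lowest share of BDL and of MZ B cells in replicate 3, where Hk1 was highest.

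Hk3, a hexokinase of myeloid cells, was under the minimum for the test. It was at 0.149, 0.19 and 0.145 FPKM in FO B cells, 0.188, 0.266 and 0.0999 in BDL and 0.441, 0.53 and 0.297 in MZ B cells, or about 23.3 to 109.7 fragments per library. All MZ libraries were above all others (two-sided exact permutation test, p = 0.1 against each subset, the smallest p that 3 libraries against 3 allow). Replicate 2 was highest in each subset, and replicate 2 of each subset also had the most of the 7 myeloid markers in the table, with 10.54, 13.5 and 12.78 FPKM in FO, BDL and MZ B cells. Between subsets the order differed. In replicates 1 and 3 the myeloid sum was 5.021 and 5.004 FPKM in MZ B cells, below the 7.611 and 6.791 in BDL, whereas Hk3 was higher in MZ B cells. The part of myeloid cells in the level of Hk3 was not tested.

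Phosphofructokinase, which commits glucose to glycolysis, had isozyme genes that differed in different directions. Pfkp (platelet form, chr13:6579014-6648023, minus strand) was at 10.8, 10.9 and 10.8 FPKM in FO B cells, 13.6, 13.5 and 13.9 in BDL and 9.01, 9.24 and 9.80 in MZ B cells, without overlap between any 2 subsets. Pfkp was 1.25-fold higher in BDL than in FO B cells (log2 fold change 0.33, standard error 0.0622, adjusted p = 0.0194) and 1.46-fold higher in BDL than in MZ B cells (0.54, adjusted p = 3.98e-04). It was 1.16-fold higher in FO than in MZ B cells (adjusted p = 0.0348). The first of these calls was lost without any 1 of the FO libraries, BDL replicate 1 or BDL replicate 2 (adjusted p up to 0.0881), and the last was lost without any 1 of these libraries, MZ replicate 1 or MZ replicate 2 (up to 0.123).

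Pfkm (muscle form, chr15:97923020-97962878, plus strand) was high in MZ B cells, with 2.22, 2.97 and 2.44 FPKM compared with 1.24, 1.24 and 1.26 in FO B cells and 1.34, 1.5 and 0.831 in BDL. It was 2.04-fold lower in BDL (log2 fold change -1.03, standard error 0.207, adjusted p = 0.00749) and 1.95-fold lower in FO B cells (-0.96, standard error 0.207, adjusted p = 0.00968) than in MZ B cells. Over the alternatives the log2 difference between BDL and MZ B cells was -1.18 to -0.68, so it did not always reach 2-fold. Pfkl (liver form) went the other way, with 13.3, 13.8 and 14.02 FPKM in FO B cells, 12.0, 11.9 and 12.9 in BDL and 9.27, 9.90 and 10.7 in MZ B cells. It was 1.38-fold higher in FO than in MZ B cells (0.46, standard error 0.0749, adjusted p = 0.00235) and 1.23-fold higher in BDL than in MZ B cells (0.30, adjusted p = 0.0186, lost without MZ replicate 1 or 2). As shares of the summed FPKM of the 3 genes, Pfkl was 53.1% ± 0.624 (SD over 3 libraries) in FO B cells, 45.2% ± 1.24 in BDL and 45.5% ± 0.906 in MZ B cells. Pfkp was 42.1% ± 0.595, 50.3% ± 0.211 and 42.8% ± 1.07, and Pfkm was 4.83% ± 0.0425, 4.52% ± 1.35 and 11.6% ± 1.54. The share of Pfkl was highest in FO B cells, that of Pfkp in BDL and that of Pfkm in MZ B cells, each without overlap between libraries.

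**Figure D3:**
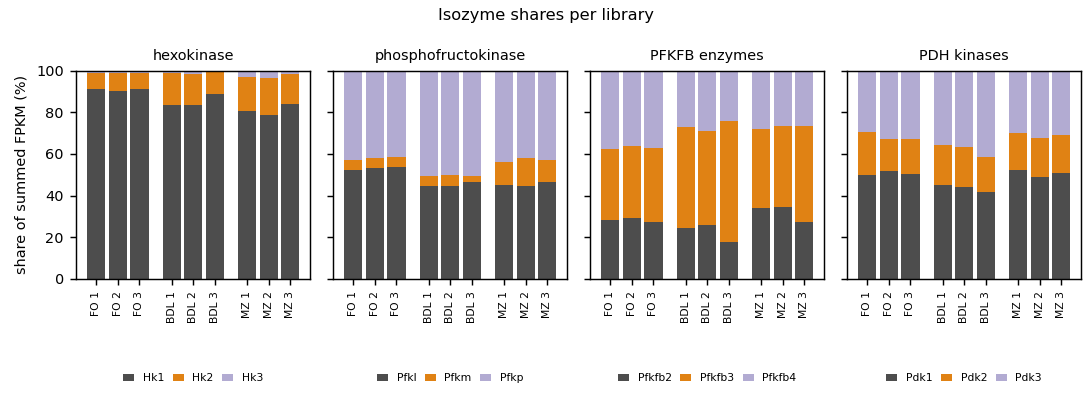
Share of each isozyme (percent of the summed FPKM of its family, stacked to 100) in each of the 9 libraries, for hexokinases, phosphofructokinases, PFKFB enzymes and pyruvate dehydrogenase kinases. Pfkp averages 50.3% of phosphofructokinase in BDL, and Pfkm averages 11.6% in MZ B cells.

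The remaining genes of upper glycolysis were of different abundance. Aldoa, the main aldolase, was at 138.6, 128 and 139.6 FPKM in FO B cells, 145.6, 131.7 and 187 in BDL and 123.5, 118.8 and 170.2 in MZ B cells, with overlap in every comparison and replicate 3 highest in each subset. Aldoc (brain aldolase) was at 4.62, 3.35 and 3.98 FPKM in FO B cells, 4.35, 3.64 and 5.89 in BDL and 3.02, 2.37 and 2.88 in MZ B cells. It was 1.63-fold higher in BDL than in MZ B cells (log2 fold change 0.70, standard error 0.192, adjusted p = 0.0271), but not without BDL and MZ replicate 3 (0.0628) nor without BDL replicate 1 or 3 or MZ replicate 1 or 2 (up to 0.0926). Tpi1, triose phosphate isomerase, was at 18.0, 18.5 and 18.8 FPKM in FO B cells, 27.7, 25.9 and 33.7 in BDL and 28.1, 24.5 and 35.3 in MZ B cells. All FO libraries were below all others. Tpi1 was 1.57-fold higher in BDL than in FO B cells (0.65, standard error 0.145, adjusted p = 0.034, up to 0.121 over the alternatives). It was 1.57-fold lower in FO than in MZ B cells (-0.65, adjusted p = 0.0116). Gpi1, glucose phosphate isomerase, was at 75.2 to 120.7 FPKM over all libraries and was higher in each MZ library than in each FO library without passing (adjusted p = 0.0743, and 0.0198 with the replicate block).

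Lower glycolysis, from glyceraldehyde phosphate to pyruvate, includes Gapdh, the enzyme gene with the highest mean of the 34, at 148.5 to 246.8 FPKM, and Pkm, pyruvate kinase, at 87.3 to 129 FPKM. Neither passed in any comparison, although each BDL library was above each FO library for both (log2 differences of 0.41 and 0.29, adjusted p = 0.112 and 0.252). Pgk1, phosphoglycerate kinase, was at 37.6, 39.1 and 40.2 FPKM in FO B cells, 49.9, 48.2 and 64.6 in BDL and 54.6, 50.0 and 69.6 in MZ B cells. All FO libraries were the lowest. Pgk1 was 1.48-fold lower in FO than in MZ B cells (log2 fold change -0.56, standard error 0.151, adjusted p = 0.0257, up to 0.0845 without any 1 of the FO libraries, MZ replicate 1 or MZ replicate 3), and its difference of 0.46 between BDL and FO B cells did not pass (adjusted p = 0.103). Pgam1, phosphoglycerate mutase, was at 29.6, 30.4 and 31.1 FPKM in FO B cells, 41.7, 41.7 and 55.02 in BDL and 41.5, 40.8 and 51.7 in MZ B cells. As for Pgk1 and Tpi1, the FO libraries lay below the overlapping ranges of BDL and MZ B cells. Pgam1 was 1.51-fold higher in BDL than in FO B cells (0.59, standard error 0.135, adjusted p = 0.0362, up to 0.128 over the alternatives). It was 1.46-fold lower in FO than in MZ B cells (-0.55, adjusted p = 0.0182, up to 0.0634 without any 1 of the FO libraries).

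Bpgm, which makes 2,3-bisphosphoglycerate and is abundant in red cells, was at 3.82 to 7.61 FPKM and passed in no comparison. BDL were above FO B cells in all libraries by 0.33 (log2, adjusted p = 0.378), beside a sum of erythroid markers that was also higher in BDL through Hbb-b1 but not Hba-a1, and the part of erythroid RNA in this was not tested. Eno1, enolase, had 44.1, 6.59 and 46.6 FPKM in FO B cells, 42.9, 34.5 and 5.64 in BDL and 30.2, 31.6 and 47.5 in MZ B cells. FO replicate 2 and BDL replicate 3 were far below the other libraries, and its standard error was 0.924 in every comparison. Eno1b, a near-identical copy without introns that was not among the 34 genes, was at 40.7 FPKM in FO replicate 2 and at 51.5 in BDL replicate 3, and 19 of 11597 rows (0.164%) shared the pattern of low values in these 2 libraries. Eno1b was at 40.9 FPKM in FO replicate 3 and at 41.2 or 65.0 in FO replicate 1, where its repeated rows differ. The level of Eno1 is therefore uncertain. Gapdh, Pgam1, Aldoa, Ldha and Tpi1 also have processed pseudogenes, and whether the assignment of shared reads affected their levels was not tested.

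**Figure D4:**
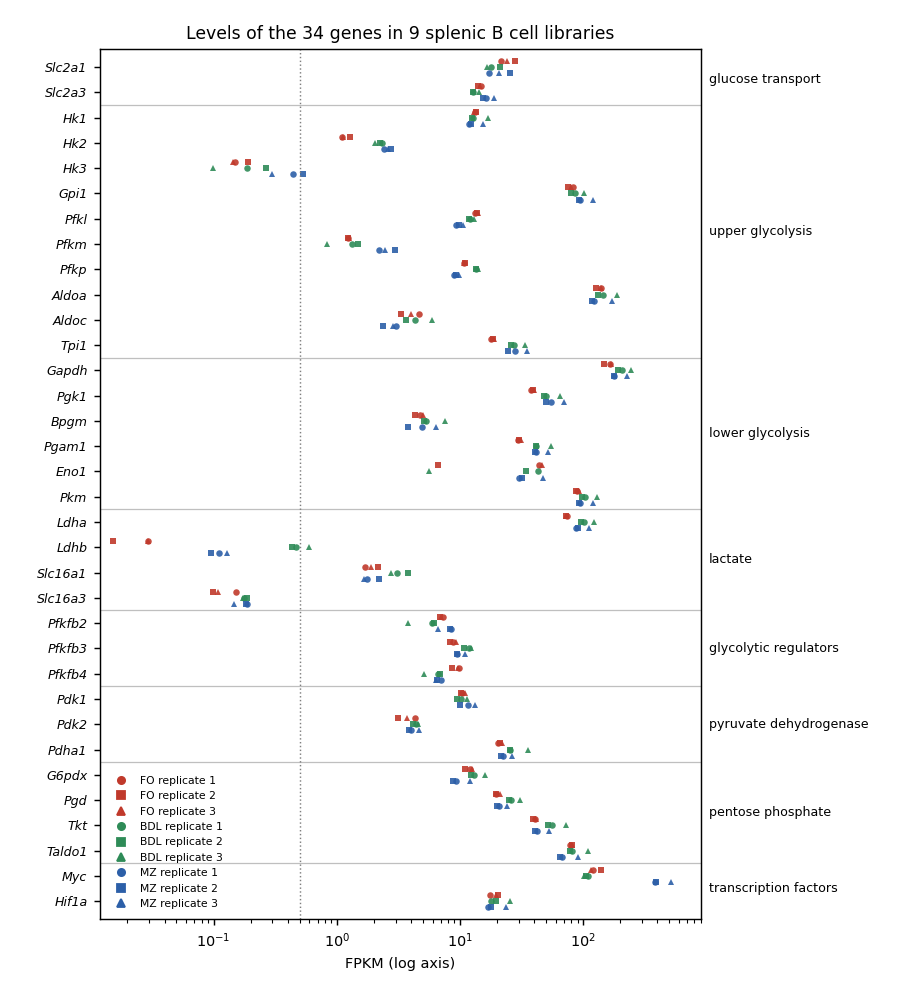
FPKM (log axis) of the 34 genes in the 9 libraries, grouped by role, with colours for subsets, shapes for replicates and a dotted line at the minimum of 0.5 FPKM for the test. Myc lies at 379.8 FPKM or more in MZ B cells only, Ldhb lies at 0.43 to 0.599 in BDL and at most at 0.0294 in FO B cells, and Eno1 is at 6.59 and 5.64 in 2 libraries.

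Genes of lactate formation and export were higher in BDL than in FO B cells. Ldha, the main lactate dehydrogenase, was at 74.3, 73.1 and 73.2 FPKM in FO B cells, 101.4, 96.95 and 121.6 in BDL and 88.3, 90.03 and 112.6 in MZ B cells. It was 1.44-fold higher in BDL than in FO B cells (log2 fold change 0.53, standard error 0.124, adjusted p = 0.0385) and 1.31-fold lower in FO than in MZ B cells (-0.39, adjusted p = 0.0486). The first of these calls was lost without any 1 of the FO or BDL libraries, MZ replicate 1 or MZ replicate 2 (adjusted p up to 0.13). The second lies at the threshold and was lost without any 1 of 8 libraries (adjusted p up to 0.131), all but BDL replicate 3. It was also lost with a minimum of 1 FPKM, with no minimum and with no trend in eBayes. Slc16a1 (MCT1, a transporter of lactate and pyruvate, chr3:104442591-104462385, plus strand) was at 1.69, 2.17 and 1.90 FPKM in FO B cells, 3.07, 3.76 and 2.74 in BDL and 1.76, 2.19 and 1.68 in MZ B cells. All BDL libraries were above all others, and FO and MZ B cells overlapped. Slc16a1 was 1.62-fold higher in BDL than in FO B cells (0.70, standard error 0.157, adjusted p = 0.0342, up to 0.129 over the alternatives) and 1.66-fold higher than in MZ B cells (0.73, adjusted p = 0.00995, up to 0.0415). Slc16a3 (MCT4, a lactate exporter of highly glycolytic cells) was at 0.0982 to 0.1886 FPKM in all libraries, with 24.7 to 54.4 fragments in each.

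Ldhb, the lactate dehydrogenase of oxidative tissues (chr6:142438769-142456477, minus strand), is named after its values were seen, since it was under the minimum for the test. It was at 0.0292, 0.0152 and 0.0294 FPKM in FO B cells, 0.465, 0.43 and 0.599 in BDL and 0.111, 0.0949 and 0.129 in MZ B cells. No 2 subsets overlapped (two-sided exact permutation test, p = 0.1 for each comparison, the smallest possible). These values stand for about 1.1 to 2.3 fragments in each FO library, 34.3 to 56.7 in each BDL library and 8 to 9.2 in each MZ library. Summed over libraries and scaled to depth, the ratio of BDL to FO B cells was 19.6 (95% interval 8.74 to 54.3), that of BDL to MZ B cells was 4.59 (2.97 to 7.36) and that of MZ to FO B cells was 4.26 (1.71 to 12.7), where the exact intervals cover counting error only. When all rows with a value above 0 were tested, the log2 fold change after adding 0.1 was 2.25 for BDL over FO B cells (standard error 0.123, adjusted p = 3.15e-04 from limma) and 1.49 for BDL over MZ B cells (adjusted p = 1.50e-04). Even in BDL, Ldhb was only 0.441 to 0.49% of the summed FPKM of Ldha and Ldhb.

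**Figure D5:**
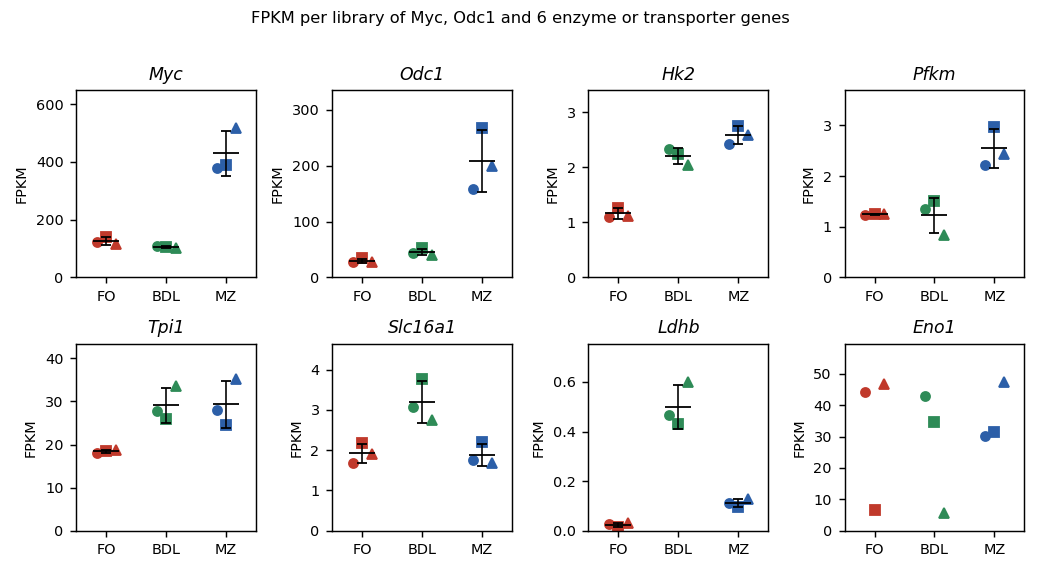
FPKM per library of Myc, Odc1, Hk2, Pfkm, Tpi1, Slc16a1, Ldhb and Eno1 in FO B cells, BDL and MZ B cells, where circles, squares and triangles are replicates 1, 2 and 3 and bars are mean ± SD, left out for Eno1. The MZ libraries stand above the others for Myc, Odc1 and Pfkm, the FO libraries below the others for Hk2 and Tpi1, and the BDL libraries above the others for Slc16a1 and Ldhb.

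The PFKFB enzymes set the level of fructose 2,6-bisphosphate, which activates phosphofructokinase, and their genes moved in opposite directions. Pfkfb3, a form with strong kinase activity, was at 8.84, 8.23 and 9.27 FPKM in FO B cells, 11.7, 10.7 and 12.3 in BDL and 9.55, 9.40 and 11.1 in MZ B cells. Pfkfb4 was at 9.74, 8.61 and 9.64 FPKM in FO B cells, 6.59, 6.89 and 5.14 in BDL and 7.02, 6.46 and 6.39 in MZ B cells. For both genes the BDL libraries did not overlap with the FO libraries. Pfkfb3 was 1.31-fold higher in BDL than in FO B cells (log2 fold change 0.39, standard error 0.0937, adjusted p = 0.0407, up to 0.13 over the alternatives). Pfkfb4 was 1.51-fold lower in BDL than in FO B cells (-0.59, standard error 0.118, adjusted p = 0.0228, lost without FO replicate 1 or 3 or BDL replicate 1, up to 0.0964). Pfkfb4 was also 1.40-fold higher in FO than in MZ B cells (0.49, adjusted p = 0.0167, up to 0.0654 without FO replicate 1 or 3 or MZ replicate 2). Pfkfb2 was at 3.79 to 8.45 FPKM and was lowest in BDL, with an adjusted p of 0.0505 against MZ B cells (0.0168 with the replicate block) and 0.181 against FO B cells. Pfkfb3 was 34.8% ± 0.783 (SD over 3 libraries) of the summed FPKM of the 3 genes in FO B cells, 50.5% ± 6.73 in BDL and 41% ± 4.38 in MZ B cells, while Pfkfb4 was 37% ± 0.729, 26.8% ± 2.44 and 27.1% ± 0.84.

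None of the genes at the entry into mitochondria passed a comparison. Pdk1, a kinase that switches off pyruvate dehydrogenase, was at 10.3, 10.3 and 11.03 FPKM in FO B cells, 10.3, 9.55 and 11.3 in BDL and 11.6, 9.94 and 13.2 in MZ B cells. Pdk2, a second kinase of this enzyme, was at 3.15 to 4.63 FPKM. Pdha1, which codes for a catalytic subunit of pyruvate dehydrogenase, was at 20.2 to 21.8 FPKM in FO B cells, 25.3 to 35.4 in BDL and 21.4 to 26.6 in MZ B cells. Pdk3, a further kinase that is not among the 34 genes, was 31.5% ± 1.87 (SD over 3 libraries) of the summed FPKM of the 3 kinases in FO B cells, 38% ± 3 in BDL and 31.1% ± 1.24 in MZ B cells. The BDL libraries of Pdha1 were above the FO libraries by 0.43 (log2, standard error 0.145, adjusted p = 0.112).

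In the pentose phosphate pathway, Pgd was higher in BDL than in either other subset. Pgd, 6-phosphogluconate dehydrogenase, was at 19.5, 19.6 and 21.1 FPKM in FO B cells, 26.1, 25.1 and 30.6 in BDL and 20.9, 19.9 and 24.1 in MZ B cells, with all BDL libraries above all others. It was 1.35-fold higher than in FO B cells (log2 fold change 0.43, standard error 0.106, adjusted p = 0.0444) and 1.26-fold higher than in MZ B cells (0.33, standard error 0.106, adjusted p = 0.0479). G6pdx, which codes for the rate-limiting glucose 6-phosphate dehydrogenase, was at 12.2, 11.1 and 12.6 FPKM in FO B cells, 12.9, 12.3 and 15.9 in BDL and 9.24, 8.73 and 12.1 in MZ B cells, and it was 1.37-fold higher in BDL than in MZ B cells (0.46, standard error 0.145, adjusted p = 0.0473). These 3 calls lie close to the threshold. Leaving out any 1 of the FO or BDL libraries, MZ replicate 1 or MZ replicate 2 ended each of them, with an adjusted p of up to 0.155, whereas with the replicate block they were 0.00747 and 0.00577 for Pgd and 0.00476 for G6pdx. All 3 calls were also lost with only the 6 libraries compared, with upper quartile scaling and with no trend in eBayes. Those against MZ B cells were lost with no minimum as well, and that of Pgd against MZ B cells with quantile normalization. Tkt, transketolase, was at 39.2 to 41.8 FPKM in FO B cells, 52.1 to 72.9 in BDL and 40.6 to 52.9 in MZ B cells, and Taldo1, transaldolase, at 64.4 to 109.3 FPKM in all libraries. Neither passed, with Tkt at 0.56 (adjusted p = 0.0558) between BDL and FO B cells and at 0.41 (adjusted p = 0.0701) between BDL and MZ B cells.

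Other enzymes, transporters and subunits of these pathways were given by a list of 53 genes, of which 36 were tested. Between BDL and FO B cells 0 were called by limma, and 2 were higher and 0 lower with no fold minimum, beside 6.04% and 1.68% of all rows. At an unadjusted p under 0.05, 6 of the list were higher and 3 lower, and the median was 0.00, beside 0.05 over all rows. Between BDL and MZ B cells 2 were called higher and 1 lower, beside 3.47% and 4.34% of all rows. Slc2a6, a glucose transporter of lysosomes, was at 2.86 to 4.62 FPKM in BDL and 0.824 to 1.599 in MZ B cells (log2 fold change 1.60, standard error 0.249, adjusted p = 0.00208). Rpia, ribose 5-phosphate isomerase of the pentose phosphate pathway, was at 37.2 to 49.7 FPKM in BDL and 18.7 to 22.9 in MZ B cells (1.06, adjusted p = 4.76e-04), and Pcx, pyruvate carboxylase, was lower in BDL (-1.02, adjusted p = 0.00494). Between FO and MZ B cells Slc2a6 was called higher (1.95, adjusted p = 6.36e-04), and the phosphoglucomutases Pgm1 (-1.32, adjusted p = 2.99e-04) and Pgm2 (-1.04, adjusted p = 2.07e-04) were called lower. Of all rows, 3.39% were called higher and 5.54% lower in this comparison.

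Genes tied to Myc were given by 2 further lists. Of 44 biosynthetic genes known as Myc targets, which serve ribosome assembly, nucleotide and polyamine synthesis, 17 were higher and 0 lower in BDL than in FO B cells with no fold minimum, with a median of 0.44, beside 6.04% and 1.68% of all rows and a median of 0.05, while Myc itself did not pass. Compared with MZ B cells, 7 were higher and 1 lower in BDL (median 0.17), where 16.5% and 11.6% of all rows passed, and 1 was higher and 14 were lower in FO B cells (median -0.29), where 12.8% and 14.3% of all rows passed. Odc1, the first enzyme of polyamine synthesis, was at 26.7, 34.4 and 27.8 FPKM in FO B cells, 44.2, 51.9 and 40.9 in BDL and 158, 266.8 and 199.1 in MZ B cells. It was the only gene of this list called at the 2-fold minimum, lower in BDL (log2 fold change -2.16, standard error 0.196, adjusted p = 1.12e-04) and in FO B cells (-2.78, standard error 0.196, adjusted p = 2.50e-05) than in MZ B cells. Of 14 tested partners and antagonists of Myc, 1 was called, Mxd4, an antagonist that pairs with Max, which was at 21.3 to 24.8 FPKM in FO B cells, 35.2 to 40.7 in BDL and 58.9 to 71.0 in MZ B cells (-1.46 for FO over MZ B cells, adjusted p = 2.59e-05). The call of Mxd4 stands beside 5.54% of all rows called lower in FO than in MZ B cells. With no fold minimum, 2 of the 14 were higher in BDL than in FO B cells and 0 lower, beside 6.04% and 1.68% of all rows.

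Of 18 tested regulators and targets of HIF outside the 34 genes, Ndrg1, a stress-induced gene, was at 0.837 to 1.11 FPKM in FO B cells, 4.44 to 4.91 in BDL and 0.0912 to 0.153 in MZ B cells. It was higher in BDL than in FO B cells (log2 fold change 2.15, standard error 0.165, adjusted p = 3.77e-04) and than in MZ B cells (4.44 after adding 0.1, adjusted p = 2.13e-06), and higher in FO than in MZ B cells (2.29, adjusted p = 2.71e-05). Adm, adrenomedullin, was 2.66-fold higher in BDL than in FO B cells (1.41, adjusted p = 0.00363) and 2.04-fold lower in FO than in MZ B cells. Bnip3, a mitophagy receptor, was higher in BDL (1.14, adjusted p = 0.00872) and in FO B cells (1.10, adjusted p = 0.0101) than in MZ B cells. The other 15 were not called, and the median of the 18 was 0.12 between BDL and FO B cells, beside 0.05 over all rows. In BDL, 2 were called higher and 0 lower than in FO B cells, beside 1.64% and 0.267% of all rows. Against MZ B cells, 2 were called higher and 0 lower in BDL, beside 3.47% and 4.34% of all rows. In FO B cells 2 were called higher and 1 lower than in MZ B cells, beside 3.39% and 5.54% of all rows.

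Markers of dividing cells moved with the comparison of BDL and FO B cells. The 15 proliferation genes summed to 20.78 to 20.86 FPKM in FO B cells, 38.39 to 38.8 in BDL and 34.75 to 44.36 in MZ B cells, and 11 of 13 tested were higher and 0 lower in BDL than in FO B cells with no fold minimum, with a median of 1.08, beside 6.04% and 1.68% of all rows. Compared with MZ B cells, 1 was higher and 4 were lower in BDL (median -0.25), where 16.5% and 11.6% of all rows passed. In FO B cells 1 was higher and 11 were lower than in MZ B cells (median -1.31), where 12.8% and 14.3% of all rows passed. At the 2-fold minimum, 7 were called higher in BDL than in FO B cells, beside 1.64% of all rows. Called lower in FO than in MZ B cells were 9, beside 5.54% of all rows. Of the 7 genes called higher in BDL than in FO B cells, the largest differences were those of Mki67, the gene of the Ki-67 antigen (log2 fold change 2.42, adjusted p = 1.44e-04), Top2a, topoisomerase 2 alpha (1.96, adjusted p = 5.31e-04), and Rrm2, a subunit of ribonucleotide reductase (1.42, adjusted p = 0.00347). Of the 9 called lower in FO than in MZ B cells they were those of Mki67 (-2.90, adjusted p = 5.96e-06), Top2a (-2.10, adjusted p = 4.15e-05) and Birc5, survivin (-1.91, adjusted p = 4.93e-04). The part of dividing cells in the levels of the 34 genes was not tested.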

How the data were processed

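Per the labels and the paper, total RNA of sorted B cells was sequenced on an Illumina instrument, and the authors mapped the reads to mm9 with TopHat2 2.1.0 and computed FPKM with Cufflinks. The deposited values are FPKM without counts, 1 per row and library, and some symbols stand on more than 1 row. The Cufflinks version and gene annotation are not given in the sources used here. The paper names a stranded library kit and the labels reads that are not strand specific. A second deposited table of Cuffdiff comparisons was not used.

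FPKM were used as deposited. Rows whose mean reached 0.5 FPKM (11597 in all) were fitted as log2(FPKM + 0.1) with limma 3.58.1 in R 4.3.3 (lmFit, eBayes with a trend), with all 9 libraries, the subset as the only term and Benjamini-Hochberg adjustment over all rows. Fold changes are on this scale, which understates the change of low genes. A gene passed at an adjusted p under 0.05 and was called with a fold change of at least 2 in addition. Ranges of FPKM and two-sided exact permutation tests (smallest p = 0.1) were used for genes under the minimum. P-values measure the spread between sorts of pooled spleens.

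Depth was estimated from genes with a transcript of at least 3000 nt, where 75.4 to 82.5% of low values came within 0.1 of whole fragments. A fragment on 1 kb stood for 0.0138 to 0.0183 FPKM. Gene positions came from GENCODE M1 on NCBIM37, and upstream windows from RefSeq.

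The members and lists were chosen with earlier results of these data known. FPKM in every library is given for genes with an adjusted p under 0.05 in any comparison, for Myc and Hif1a and for the most abundant isozyme of each family, and in the lists of other pathway enzymes, the Myc network, Myc biosynthetic targets, HIF and proliferation the up to 3 called genes with the largest fold change per list, comparison and direction are named. Eno1, Ldhb and the cell type markers Sdc1, Prdm1, Emr1, Irf4, Lck, Cd9, Hbb-b1 and Hba-a1 were added after their values were seen. The summed FPKM of the plasma cell and germinal centre lists were 185.7 to 223 and 2.479 to 3.242 in FO B cells, 128.5 to 206.7 and 2.634 to 3.487 in BDL, and 224.3 to 296 and 2.679 to 3.657 in MZ B cells. Those of the NK cell list were 2.607 to 7.159, 2.385 to 5.88 and 6.665 to 12.06, and those of the platelet list 0.4293 to 0.6871, 0.2179 to 0.5662 and 0.1658 to 0.5655.

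Replicate numbers follow a tag in the sample titles that reads as a date and that 1 library of each subset shares, which is where the pairing comes from. The correlation of deviations from the subset means between libraries of the same tag was 0.147, -0.062 and 0.049 for BDL and FO B cells, 0.1, 0.182 and 0.244 for BDL and MZ B cells and 0.024, 0.008 and 0.014 for FO and MZ B cells. The alternatives were other values added (0.01 or 1), a filter at 1 FPKM or no filter, a fit of only the 6 libraries compared, the tag as a replicate block, quantile normalization, upper quartile scaling, no trend in eBayes, calls by the fold of mean FPKM, and fits without each library in turn. Leaving out the BDL and MZ libraries of replicate 3 together was chosen after seeing the data.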

Additional observations from a re-analysis of the deposited data

How the results depend on the processing

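No difference that passed reversed its direction. Of 28 differences of single genes that passed, 10 passed under all 19 alternatives, and of the 532 values these alternatives gave, 401 stayed under the threshold, 131 did not and 0 reversed. Of 1235 values for the 65 differences that did not pass, 42 passed. With no minimum, 1 gene was called higher in BDL than in FO B cells and 1 higher than in MZ B cells. With only the 6 libraries compared, 4 genes passed higher and 0 lower in BDL than in FO B cells, and 2 higher than in MZ B cells. With 1 added, with quantile normalization or without both libraries of replicate 3, 1 gene was called lower in BDL than in MZ B cells, and with 1 added or quantile normalization 1 was called lower in FO than in MZ B cells. Myc was that gene in each case. The replicate block gave 2 genes lower in BDL than in FO B cells and 5 higher in FO than in MZ B cells, and it took no gene that passed over the threshold. Leaving out both libraries of replicate 3 gave 2 and 6 in these counts. The median between BDL and MZ B cells was 0.03 with upper quartile scaling and 0.01 with quantile normalization.

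With 1 library left out in turn, the genes that passed ranged from 1 to 9 (higher in BDL than in FO B cells), 0 to 1 (lower), 2 to 8 (higher in BDL than in MZ B cells), 1 to 4 (higher in FO than in MZ B cells) and 4 to 8 (lower). Genes called lower in BDL than in MZ B cells ranged from 1 to 2, and the median between these subsets from 0.03 to 0.23. A fit that leaves a subset with 2 libraries has fewer samples. The share of all rows that passed was not counted under the alternatives. The cause of the other changes was not tested. Summing repeated rows left the isozyme shares as they were, since none of these symbols is repeated. Differences of genes with few fragments, such as Ldhb in FO B cells, are limited by depth, and differences well under 2-fold by 3 libraries per subset.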
